A study of Mus musculus with 18 samples.

Results

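The genes described are 10 that mark lung and squamous lineages, taken from a list of gene symbols. They are the transcription factor genes Sox2, Trp63, Nkx2-1, Foxa1 and Foxa2, and the keratin genes Krt7, Krt8, Krt14, Krt18 and Krt19. All 10 were listed, out of 36047 genes, and their RNA was read in 18 libraries in 6 groups of 3. LLC (Lewis lung carcinoma), labelled lung adenocarcinoma, is a line from C57BL/6 mice, and UN-SCC679, labelled lung squamous carcinoma, is a line from A/J mice. In both lines a construct named sh3, carried in TPLKO, was compared with empty TPLKO, and both arms received doxycycline. In UN-SCC679, cells with OE_DSTYKwt (wild-type DSTYK, a dual serine/threonine and tyrosine protein kinase) in pLENTI6 were set against cells with empty pLENTI6. For those 2 groups the labels list no treatment. Whether each population is 1 clone or a pool is not given in the sources used here. The labels give replicate numbers but not separate cultures, so the spread behind each p-value may be technical.

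Sox2 and p63, the product of Trp63, are transcription factors of basal and squamous epithelium. Nkx2-1 and the forkhead factors Foxa1 and Foxa2 act in the lung and airway epithelium, and Nkx2-1 is a standard marker of lung adenocarcinoma. Keratins form filaments as pairs of a type I and a type II chain. Krt8 (type II) pairs mainly with Krt18 (type I) in simple epithelium, where Krt7 (type II) and Krt19 (type I) are also found. Krt14 (type I) marks the basal layer of stratified epithelium, where its usual partner is Krt5. Trp63 is read from alternative promoters: the TA proteins carry an N-terminal transactivation domain, and the delta N proteins, which start at an internal promoter, lack it and are the usual class of basal and squamous cells.

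The point where the coding sequences of the 2 Trp63 classes part is shown because the Trp63 counts lay almost entirely in 1 of them. Both lines run 5′ to 3′ in the sense of the gene and come from the GENCODE M21 transcripts on GRCm38. Capitals mark coding bases found in that class, and the 30 bases in lower case are the start of the exon both classes share, at chr16:25820388-25820642 on the plus strand. For the delta N class (transcript Trp63-201) the capitals are its whole specific coding stretch of 42 bases, from the start codon at chr16:25802060-25802101. For the TA class (transcript Trp63-208) they are the last 60 of 324 specific coding bases, at the end of the exon part at chr16:25764164-25764296.
Trp63 delta N: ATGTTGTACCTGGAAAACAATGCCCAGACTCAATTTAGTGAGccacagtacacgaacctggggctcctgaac
Trp63 TA: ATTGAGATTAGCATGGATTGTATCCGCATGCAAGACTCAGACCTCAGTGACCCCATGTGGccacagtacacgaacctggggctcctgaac

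Libraries held 40525385 to 46528071 estimated counts. Levels are given as TPM, transcript abundance relative to the whole library, which takes transcript length into account and allows genes to be compared. Changes are log2 fold changes from edgeR's quasi-likelihood test on counts, and a gene was called at an adjusted p under 0.05 (Benjamini-Hochberg over all tested genes). Dstyk was lower with sh3 in both lines (log2 -0.89 in LLC and -0.49 in UN-SCC679) and higher with OE_DSTYKwt (0.28), with no overlap of libraries in any of the 3. The first library with empty pLENTI6 stood apart: its mean chi-square per gene against the other libraries of its group was 12.21 and 13.85, and no other pair exceeded 5.04. All p-values below are adjusted, from that test.

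The label of UN-SCC679 was checked against 33 squamous and basal keratinocyte genes. Of these, 8 had a mean of at least 1 TPM with empty TPLKO, and 6 were at 0, among them Krt5, the defining basal keratin, and the desmosomal cadherins Dsg3 and Dsc3. Perp, a desmosomal membrane protein, stood at 147 TPM and Pkp1, plakophilin 1, at 73.6 TPM. Vim, the intermediate filament of mesenchymal cells, stood at 2850 TPM, and the epithelial adhesion genes Epcam (0.033 TPM) and Cdh1 (0.00779 TPM) were close to 0. Between the empty TPLKO groups the count did not separate the lines: in LLC 8 of the 33 also had at least 1 TPM, with Itga6 at 220 TPM, and 9 were at 0. In the other groups the count was 12 with empty pLENTI6, 15 with sh3 and 11 with OE_DSTYKwt in UN-SCC679, and 8 with sh3 in LLC. The keratin gene Krt6a of this list stood at 47.5 TPM with empty pLENTI6 and 0.339 TPM with empty TPLKO in UN-SCC679. In LLC with empty TPLKO the surfactant gene Sftpc and the squamous genes Krt5, Perp and Pkp1 were all at 0, Epcam was at 0.0307 TPM, and Vim at 1220 TPM. Of 22 listed alveolar, club and ciliated cell genes, 4 had at least 1 TPM in that group, which were Etv5 at 68.3, Abca3 at 11.4, Hopx at 2.75 and Ager at 2.17 TPM, and 9 were at 0. In the empty TPLKO group of UN-SCC679, 5 of these 22 had at least 1 TPM and 6 were at 0. The 5 were Aqp5 at 760, Abca3 at 25.4, Etv5 at 7.64, Cebpa at 6.91 and Hopx at 2.85 TPM. Aqp5 stood at 0.484 TPM in LLC. The list summed to 798 to 809 TPM in UN-SCC679 and 86.1 to 86.8 TPM in LLC. Aqp5 made up most of the sum in UN-SCC679, and Etv5, which was lower in UN-SCC679, most of that in LLC. The higher sum in UN-SCC679 is thus that of Aqp5 and does not describe the whole list.

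The lines differed in all 10 genes. With empty TPLKO, 8 genes were higher in UN-SCC679 than in LLC and 2 (Foxa2 and Krt19) were lower, and all 10 were tested and called. Against this stands a background of 82.9% of 14351 tested genes called, 42.0% higher and 40.9% lower, and 7 of the 10 passed the filter on low counts through 1 line only (all but Krt7, Krt8 and Krt18). The direction of those 7 calls was fixed by the filter. Line, strain and tumour type differ together here and cannot be told apart.

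**Figure D1:**
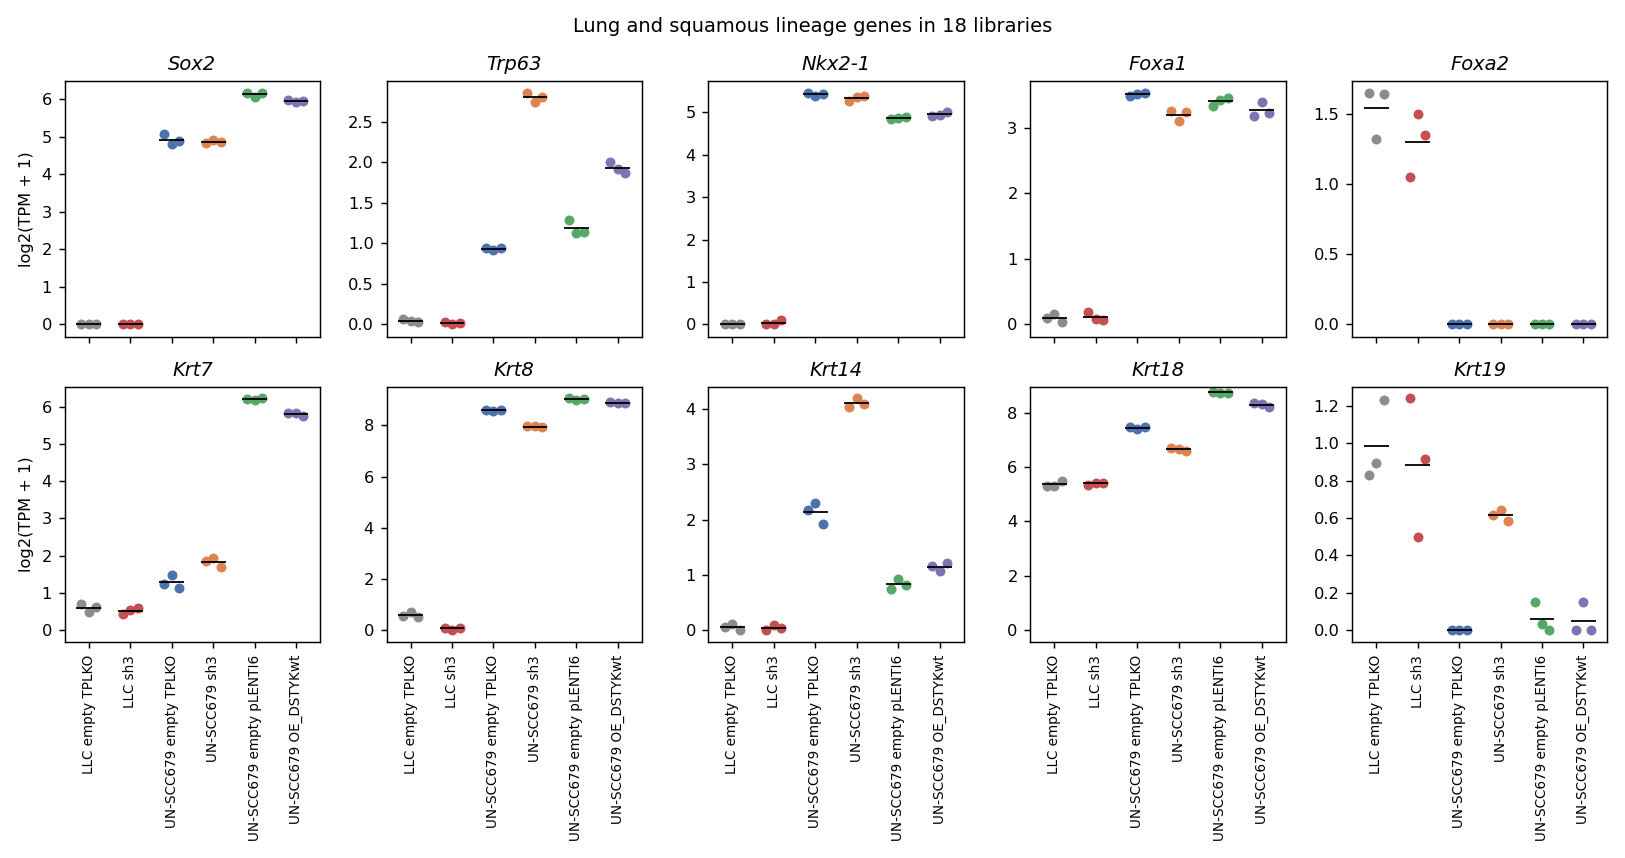
Level of each gene as log2(TPM + 1) (vertical axis, own scale in each panel) in the 18 libraries of 6 groups (horizontal axis). Points are libraries and bars are means of 3; Sox2, Nkx2-1, Foxa1 and Krt8 sit high in the UN-SCC679 groups and at or near 0 in LLC, and Foxa2 is the reverse.

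Sox2 had 0 counts in all 6 LLC libraries. With empty TPLKO in UN-SCC679 it stood at 32.8, 27.0 and 28.4 TPM, at least 1520-fold higher when 3 counts over the LLC group are taken as the floor. Nkx2-1 also had 0 counts in LLC with empty TPLKO, against 43.2, 41.1 and 42.0 TPM in UN-SCC679, at least 2410-fold higher. The squamous factor Sox2 and the adenocarcinoma marker Nkx2-1 were therefore detected together in the line labelled squamous, at mean levels of 29.4 and 42.1 TPM, and neither in the LLC control. Foxa1 was 144-fold higher in UN-SCC679 (10.2, 10.4 and 10.6 TPM against 0.0686, 0.116 and 0.0247 TPM). Foxa2, a close relative of Foxa1, went the other way: 2.14, 1.5 and 2.12 TPM in LLC and 0 counts in all 12 UN-SCC679 libraries, at least 99.7-fold lower with empty TPLKO. All 305 Foxa2 counts of the LLC control lay on transcript Foxa2-202. Foxa1 had 17 counts in the LLC control, so each line read mainly 1 of the 2 genes.

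Trp63 was 24.9-fold higher in UN-SCC679 than in LLC with empty TPLKO (SE of log2 0.32; adjusted p = 5.56e-08). Trp63 and Krt14 had passed the filter through UN-SCC679 only, so the direction of their calls was fixed by the filter. The level of Trp63 was low, at 0.915, 0.891 and 0.916 TPM against 0.043, 0.026 and 0.025 TPM. Krt14 was 90.7-fold higher, at 3.52, 3.92 and 2.78 TPM against 0.0438, 0.0761 and 0 TPM, where the LLC control held 4 counts in all. The genes of the basal cell pair of p63 and keratin 14 were both read in UN-SCC679, each far below Sox2 and Nkx2-1.

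Krt8 showed the widest difference among the keratins, at 389, 372 and 387 TPM in UN-SCC679 against 0.454, 0.658 and 0.448 TPM in LLC, 730-fold higher (log2 9.51, SE 0.0558; adjusted p = 4.83e-17). Its partner Krt18 differed 4.26-fold, from 38.7, 38.9 and 43.7 TPM in LLC to 175, 168 and 178 TPM. LLC thus held Krt18 RNA with very little Krt8 RNA: the Krt8 to Krt18 ratio of TPM was between 0.0103 and 0.0169 with empty TPLKO, and between 2.18 and 2.22 in UN-SCC679. Krt7 was 1.76-fold higher in UN-SCC679 (adjusted p = 0.00578), at a mean of 1.44 against 0.521 TPM. Krt19 was at 0 in UN-SCC679 and at 0.774, 0.859 and 1.35 TPM in LLC, at least 21.2-fold lower. Krt18 made up 97.0% to 97.9% of the summed type I members (Krt14, Krt18 and Krt19) in LLC and 97.7% to 98.5% in UN-SCC679 with empty TPLKO.

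With sh3 in UN-SCC679, Trp63 and Krt14 rose, as did the simple keratin genes Krt7 and Krt19. The partners Krt8 and Krt18 fell, and so did Foxa1. Sox2 and Nkx2-1 did not pass the test, and Foxa2 was not tested. Of 9 genes tested, 7 were called, against a background of 63.8% of 14271 genes called (31.8% higher, 32.0% lower). Krt19 had passed the filter through the sh3 group only, so that it could only be called higher. With libraries of bulk RNA, fewer cells of a type and less RNA per cell cannot be told apart.

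**Figure D2:**
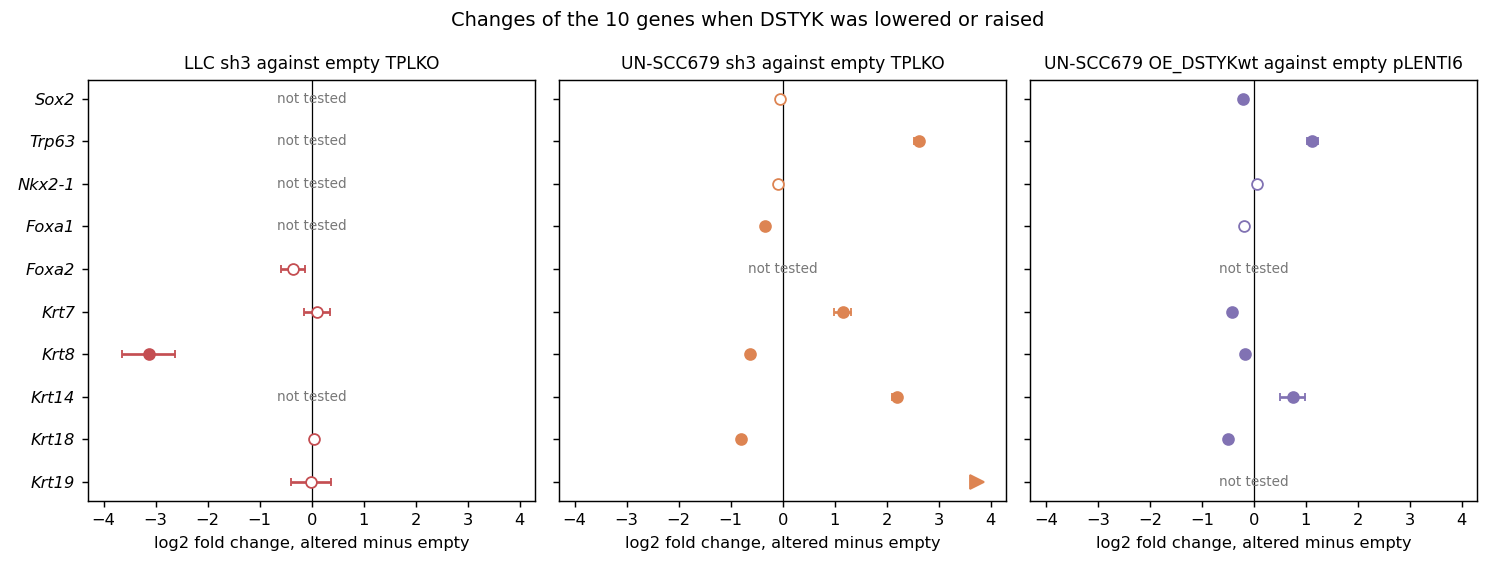
Log2 fold change of each gene (horizontal axis, altered arm minus its empty vector; bars are standard errors, n = 3 per group) in the 3 comparisons. Filled points passed the test and open points did not; the arrow for Krt19 marks the lower bound of its fold. Trp63 lies right of 0 at 2.62 with sh3 and 1.13 with OE_DSTYKwt, and Krt18 left of 0 at -0.80 and -0.49.

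Trp63 rose from 0.915, 0.891 and 0.916 TPM with empty TPLKO to 6.24, 5.70 and 6.00 TPM with sh3. Every sh3 library lay above every empty library, and the change was 6.13-fold (log2 2.62, SE 0.0906; adjusted p = 3.53e-10). The tested genes of chromosome 16, where Trp63 lies, moved by a median of 0.16 on the log2 scale. The rise was a rise of delta N transcripts. In the empty group all 278 counts were assigned to transcripts with the internal start, and with sh3 1677 of 1732 counts were (96.9%), the other 55 going to TA transcripts. Across all 6 groups the delta N class held 95.5% to 100% of Trp63 counts. None of the 31-base words of Trp63 transcripts occurs in a listed transcript of another gene.

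**Figure D3:**
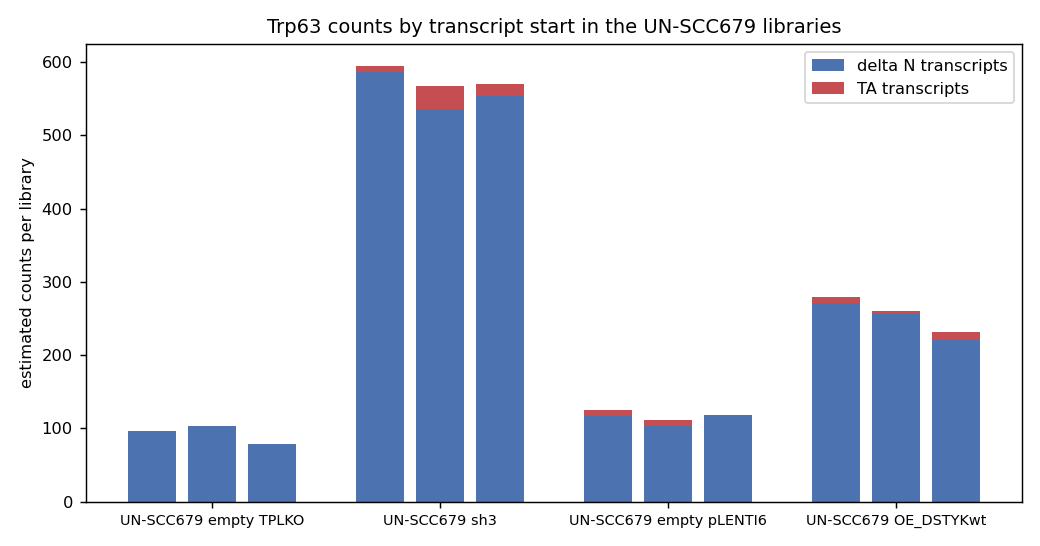
Estimated Trp63 counts per library (vertical axis) in the 12 UN-SCC679 libraries, split by the start of the transcript they were assigned to. Delta N transcripts make up nearly all of every bar; the 3 sh3 libraries hold between 567 and 595 counts and the libraries with empty TPLKO between 78 and 103.

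Krt14 rose from 3.52, 3.92 and 2.78 TPM to 15.5, 17.3 and 16 TPM. The groups were far apart, with a 4.58-fold change (log2 2.20, SE 0.0873; adjusted p = 1.17e-09). Of the 31-base words of Krt14 transcripts, 28.2% also occur in other listed genes, most of them in Krt16, a stress-induced type I keratin, which stood at 0.287 TPM with empty TPLKO and 1.37 TPM with sh3. The processed transcript Krt14-202 held 18.2% of Krt14 counts in the empty group and 25.7% with sh3. Krt5, the usual partner of Krt14, had 2 counts in the sh3 group and 0 in the empty group, so the basal keratin pair was read on its type I side only.

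Krt8 fell from 389, 372 and 387 TPM to 252, 249 and 241 TPM, a 1.54-fold reduction (log2 -0.62, SE 0.0245; adjusted p = 1.03e-09). Krt18 fell from 175, 168 and 178 TPM to 102, 101 and 95.6 TPM, a 1.74-fold reduction (log2 -0.80, SE 0.0328; adjusted p = 1.53e-09). Both partners fell with no overlap between groups. The Krt8 to Krt18 ratio was between 2.18 and 2.22 without sh3 and between 2.46 and 2.53 with it, so the ranges did not overlap either. Krt8 (chr15:101996698-102004482, minus strand) and Krt18 (chr15:102028180-102032027, plus strand) are divergent neighbours 23.7 kb apart with no protein-coding gene between them. The median log2 change of chromosome 15 was 0.02. Krt7 lies on the same chromosome, 566.4 kb away with 22 keratin genes between, and moved the other way.

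Krt7 rose from 1.35, 1.78 and 1.20 TPM to 2.61, 2.81 and 2.27 TPM, a 2.23-fold change (log2 1.15, SE 0.163; adjusted p = 6.45e-05). Krt19 had 0 counts in the 3 empty libraries and 16, 13 and 12 counts with sh3 (0.534, 0.560 and 0.501 TPM), at least 13.4-fold higher with 3 counts over the empty group as the floor (adjusted p = 0.000221). Because Krt19 had passed the filter through the sh3 group only, its direction was fixed by the filter. Krt14 and Krt19 lie in the type I cluster of chromosome 11, 54.5 kb apart with 1 keratin gene between, where the median log2 change was -0.09. Because Krt18 fell while Krt14 rose, the share of Krt18 in the summed type I members was 97.7% to 98.5% without sh3 and 84.9% to 86.5% with it. Krt8 remained 98.9% or more of the summed type II members (Krt7 and Krt8).

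Among the transcription factors, Foxa1 fell from 10.2, 10.4 and 10.6 TPM to 8.57, 7.59 and 8.45 TPM, a 1.26-fold reduction (log2 -0.33, SE 0.058; adjusted p = 0.000332). Sox2 stood at 32.8, 27.0 and 28.4 TPM without and at 27.3, 29.4 and 27.9 TPM with sh3; the groups overlapped (log2 -0.05, SE 0.0639; adjusted p = 0.478), and its sign turned with library size scaling. Nkx2-1 stood at 43.2, 41.1 and 42.0 TPM without and at 37.4, 40.3 and 40.6 TPM with sh3. Its groups did not overlap, but the change of log2 -0.09 (SE 0.0355) missed the threshold (adjusted p = 0.0524) and passed it without the second empty library (0.0398), without the third sh3 library (0.0409) and with no filter on low counts (0.0372). Nkx2-1 and Foxa1 lie 1003.7 kb apart on chromosome 12. Foxa2 was at 0 in both groups.

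With OE_DSTYKwt in UN-SCC679, Trp63 and Krt14 were again higher and Krt8, Krt18, Krt7 and Sox2 were lower. Of 8 genes tested, 6 were called, none of them having passed the filter through 1 group only, against a background of 29.7% of 13975 genes called (14.6% higher, 15.2% lower). Nkx2-1 and Foxa1 did not pass the test, and Foxa2 and Krt19 were not tested. Without the first library with empty pLENTI6, which stood apart, 7 were called, the other being Foxa1. Over all genes the number called rose as well, to 4936 of 14210.

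Trp63 stood at 1.44, 1.18 and 1.20 TPM with empty pLENTI6 and at 3.02, 2.78 and 2.63 TPM with OE_DSTYKwt. All OE_DSTYKwt libraries lay above all empty ones, a 2.19-fold rise (log2 1.13, SE 0.103; adjusted p = 4.57e-05). Delta N transcripts held 95.5% and 97.0% of the counts. Krt14 was low in both groups, at 0.685, 0.898 and 0.753 TPM against 1.24, 1.09 and 1.33 TPM, with 81 and 135 counts in all. The groups did not overlap, and the 1.67-fold rise (log2 0.74, SE 0.236) passed narrowly (adjusted p = 0.0399). This call was lost without the third library with empty pLENTI6 (log2 0.56, adjusted p = 0.113), without the first or the third OE_DSTYKwt library (0.123 and 0.132), with DESeq2 (0.0835) and with a replicate block (0.0674).

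Krt18 fell from 436, 424 and 423 TPM to 322, 314 and 297 TPM, 1.40-fold (log2 -0.49, SE 0.0368; adjusted p = 1.36e-05). Krt8 fell less, from 530, 507 and 518 TPM to 480, 468 and 466 TPM, 1.12-fold (log2 -0.17, SE 0.0333; adjusted p = 0.00465). The Krt8 to Krt18 ratio was between 1.20 and 1.22 with the empty vector and between 1.49 and 1.57 with OE_DSTYKwt, without overlap. Krt7 fell from 73.3, 71.2 and 74.7 TPM to 55.9, 56.3 and 53.3 TPM, 1.33-fold (log2 -0.41, SE 0.0316; adjusted p = 1.45e-05). The retained-intron transcript Krt7-202 held 52.7% of its counts with the empty vector and 54.2% with OE_DSTYKwt, more than Krt7-201 with 39.5% and 38.5%.

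Sox2 fell from 71.4, 65.9 and 70.6 TPM to 61.8, 60.2 and 61.4 TPM, 1.16-fold (log2 -0.21, SE 0.0406; adjusted p = 0.00397). Nkx2-1 stood at 27.7, 28.0 and 28.6 TPM without and at 29.3, 29.8 and 31.1 TPM with OE_DSTYKwt, apart in TPM but overlapping in scaled counts (log2 0.06, SE 0.0355; adjusted p = 0.215). Foxa1 overlapped as well, at 9.11, 9.76 and 9.95 TPM against 8.01, 9.52 and 8.32 TPM (log2 -0.18, SE 0.0643; adjusted p = 0.060), and was called without the first empty library (0.0271), without the second OE_DSTYKwt library (0.0164) and with no filter on low counts (0.042). Krt19 had 3 counts in the empty group and 2 with OE_DSTYKwt.

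**Figure D4:**
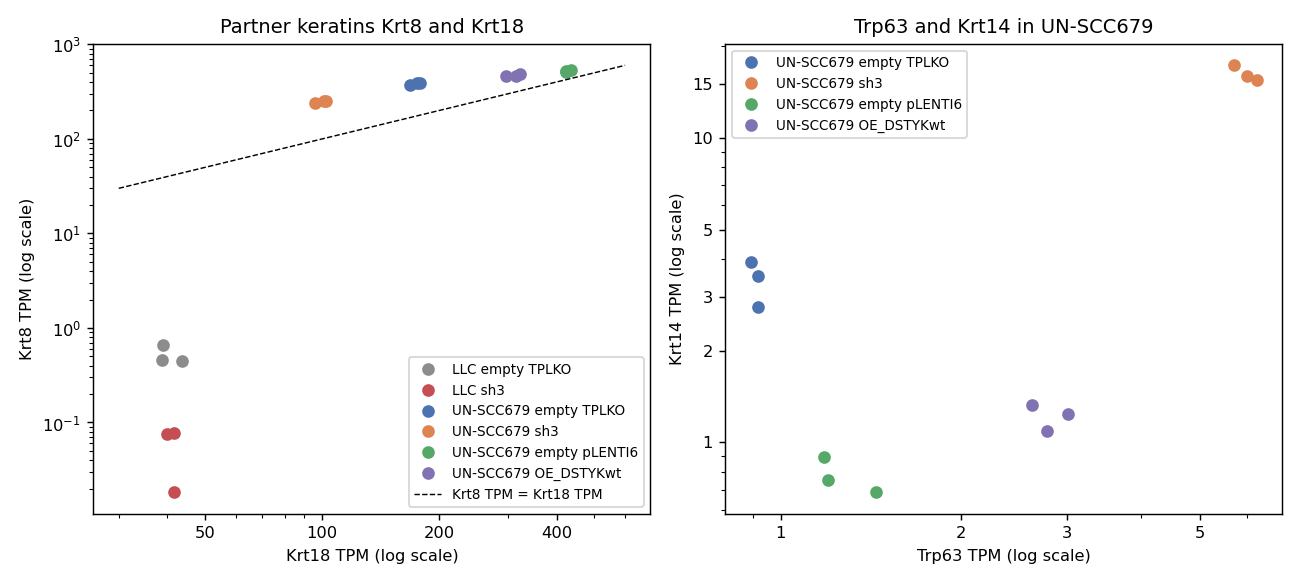
Left, Krt8 TPM against Krt18 TPM in the 18 libraries (log axes; the dashed line marks equal levels); right, Krt14 TPM against Trp63 TPM in the 12 UN-SCC679 libraries (log axes). Points are libraries, coloured by group; the LLC libraries lie far below the line of equal Krt8 and Krt18, and the sh3 libraries of UN-SCC679 lie highest for both Trp63 and Krt14.

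In UN-SCC679, sh3 and OE_DSTYKwt thus gave changes of the same sign in Trp63, Krt14, Krt8 and Krt18. The experiments share no library. The difference of the effects (sh3 effect minus OE_DSTYKwt effect) was tested on 12 libraries and called for 7 of 9 tested genes, against a background of 51.9% of 14975 genes. Without the first library with empty pLENTI6, 6 were called, against 7892 of 15399 genes in all. The sh3 effect was the more positive for Trp63 (difference in log2 1.49, SE 0.138; adjusted p = 4.34e-07), Krt14 (1.45, SE 0.226; 7.45e-05) and Krt7 (1.57, SE 0.121; 6.15e-08), and the more negative for Krt8 (-0.46, SE 0.0425; 4.49e-07) and Krt18 (-0.31, SE 0.0519; 0.000149). Krt7 was the only one of the 10 genes called in opposite directions in the 2 arms. Nkx2-1 was called at -0.15 (SE 0.0508; adjusted p = 0.0242), a call lost without the first sh3 library (0.0596), without the third OE_DSTYKwt library (0.0667), with DESeq2 (0.0538), with library size scaling (0.125) and with a replicate block (0.0536). Krt19 was called (adjusted p = 0.0104) on 41, 0, 2 and 3 counts in its 4 groups. Sox2 (0.16, SE 0.0818; adjusted p = 0.127) and Foxa1 (-0.15, SE 0.0876; adjusted p = 0.171) were not, and Sox2 was called without the first library with empty TPLKO (0.24; 0.00657).

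The 2 empty-vector populations of UN-SCC679 differed from each other in 7 of 8 tested genes, against a background of 68.7% of 14080 genes. The number was also 7 without the first library with empty pLENTI6, against 9666 of 14456 genes in all. The populations differ in vector, in the listed treatment (doxycycline, or none given) and in how the deposited library names write the line, and these cannot be told apart. Krt7 was 67.4-fold lower with empty TPLKO than with empty pLENTI6 (log2 -6.08, SE 0.0612; adjusted p = 5.99e-12), a difference far above its change with sh3 or OE_DSTYKwt. Krt18 was 2.38-fold lower, Sox2 2.28-fold lower and Krt8 1.31-fold lower, whereas Krt14 was 4.90-fold higher and Nkx2-1 1.54-fold higher. Foxa1 was called at log2 0.16 (adjusted p = 0.0145; lost with no filter, 0.065, and with limma, 0.192). Trp63, at log2 -0.32, was not called (adjusted p = 0.0789; called with limma, 0.0173). Krt8-ps, a processed pseudogene that shares most of the Krt8 words found in other genes (32.3% of Krt8 words), stood at 4.43 TPM with empty TPLKO and 38.8 TPM with empty pLENTI6, so part of the reads of these 2 genes cannot be told apart.

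In LLC, only Krt8 passed the test with sh3, of 5 genes tested, against a background of 72.6% of 13767 genes called (36.2% higher, 36.4% lower). Krt8 had 24, 31 and 22 counts with empty TPLKO (0.454, 0.658 and 0.448 TPM) and 4, 1 and 4 counts with sh3 (0.0753, 0.0182 and 0.0765 TPM). The libraries did not overlap, and the fitted fall was 8.80-fold (log2 -3.14, SE 0.501; adjusted p = 8.74e-05). Krt8 passed the filter through the empty group only, so that its direction was fixed by the filter. With a filter of 1 CPM in 3 libraries it was not tested. On the log2(TPM + 1) scale of limma, which understates changes at low levels, the fall was -0.52. Krt18, which unlike Krt8 was well read in LLC, stood at 38.7, 38.9 and 43.7 TPM without and 39.9, 41.5 and 41.7 TPM with sh3 (log2 0.04, SE 0.047; adjusted p = 0.491).

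Foxa2 overlapped between the LLC groups, at 2.14, 1.5 and 2.12 TPM against 1.07, 1.82 and 1.55 TPM (log2 -0.36, SE 0.223; adjusted p = 0.165). Krt7 (0.618, 0.411 and 0.533 TPM against 0.349, 0.456 and 0.512 TPM; adjusted p = 0.726) and Krt19 (0.774, 0.859 and 1.35 TPM against 1.36, 0.411 and 0.888 TPM; adjusted p = 0.979) overlapped too. Sox2 was at 0 in every LLC library, Nkx2-1 had 5 counts in 1 sh3 library, and Foxa1 had 17 counts without and 21 with sh3. Trp63 had 11 counts without and 2 with sh3 (ratio 0.171 with an exact 95% interval of 0.0184 to 0.783, which covers counting error only). Krt14 had 4 and 3 counts. These 5 genes were not tested.

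Whether the sh3 effect differed between the lines could be tested for 10 genes, of which 6 were called, against a background of 59.9% of 15399 genes. Only 4 genes had been tested in both lines. Their effects in UN-SCC679 minus those in LLC were log2 1.06 for Krt7 (SE 0.27; adjusted p = 0.00291), 2.51 for Krt8 (SE 0.385; 2.86e-05), -0.83 for Krt18 (SE 0.0611; 5.57e-09) and 6.82 for Krt19 (SE 1.12; 9.84e-05), each called. The value for Krt8 contrasts a fall between very low levels in LLC with a smaller relative fall from 382.8 TPM, and on the log2(TPM + 1) scale it turned to -0.11 (adjusted p = 0.264). The value for Krt19 rests on a group at 0 counts and is no bound of a fold.

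Over the 6 groups, Trp63 was highest in UN-SCC679 with sh3, followed by OE_DSTYKwt, empty pLENTI6, empty TPLKO and the LLC groups, and no neighbours in that order overlapped. Krt14 was also highest with sh3 (16.3 TPM) but stood second with empty TPLKO (3.41 TPM), above OE_DSTYKwt (1.22 TPM) and empty pLENTI6 (0.779 TPM). Krt8, Krt18, Krt7 and Sox2 were highest with empty pLENTI6 and next with OE_DSTYKwt. Krt8 and Krt18 then fell in the order empty TPLKO, sh3 and LLC without overlap among the UN-SCC679 groups; Krt7 had sh3 above empty TPLKO, and for Sox2 those 2 groups overlapped. Nkx2-1 was higher in the TPLKO than in the pLENTI6 groups of UN-SCC679, with empty TPLKO highest (42.1 TPM), then sh3 (39.4 TPM), OE_DSTYKwt (30.04 TPM) and empty pLENTI6 (28.1 TPM), all apart in TPM, and LLC lowest. Foxa1 ran from 10.4 TPM with empty TPLKO to 8.20 TPM with sh3, and the OE_DSTYKwt group between them overlapped with both its neighbours.

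For the 3 keratin genes tested in all 3 altered arms, the genes most like them were found by Pearson's r of log2(TPM + 1) over 18 libraries among 12353 genes with a mean of at least 1 TPM. Libraries of a group share cells and vector, so these values mostly describe differences between the 6 groups. Nearest to Krt7 were Gm3508 (r = 0.9971), Snrpd2, a core splicing protein gene (0.995), and Krt6a, a type II keratin of stressed and hyperproliferative epithelium (0.9937). Krt6a stood at 0.339 and 1.02 TPM in the TPLKO groups of UN-SCC679 and at 47.5 and 59.3 TPM in the pLENTI6 groups. Nearest to Krt8 were Dnaja4, a co-chaperone gene (0.9985), Cachd1 (0.9984) and Cdkn2b, which encodes the cell cycle inhibitor p15 (0.9984), and to Krt18 the receptor tyrosine kinase gene Axl (0.9922), Odaph (0.991) and Mlf2 (0.9885).

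The other genes of these lineages were followed in lists of squamous and basal, alveolar, club and ciliated, simple epithelial, and endoderm and airway transcription factor genes. Their counts are to be read against all tested genes, of which 63.8% were called with sh3 in UN-SCC679, 72.6% in LLC and 29.7% with OE_DSTYKwt. In LLC each of these lists had a smaller share called, as had the simple epithelial list in every comparison. With sh3 in UN-SCC679, 10 of 17 tested squamous and basal genes were higher and 3 lower (median log2 0.41, against 0.01 over all tested genes, a median that applies to every list in this comparison and in LLC). Itgb4, the integrin beta 4 chain of hemidesmosomes, rose 8.57-fold (log2 3.10, SE 0.136), while Klf5, a transcription factor of basal epithelium, fell 1.36-fold. With OE_DSTYKwt, 7 of 15 were higher and 0 lower (median 0.12, against 0.00 over all genes); Itgb4 rose 2.09-fold and Pkp1 1.28-fold. In LLC, 6 of 15 were higher and 3 lower (median 0.31); Klf5 rose 1.75-fold and Itga6, the partner chain of integrin beta 4, 1.31-fold.

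Alveolar, club and ciliated cell genes with sh3 in UN-SCC679 were higher in 6 and lower in 3 of 10 tested (median 1.09). Of the 6 higher genes, 3 had passed the filter through the sh3 group only. Their direction was fixed by the filter, and they raise the median, so no shift of the list can be read from it. Hopx, a homeodomain protein of alveolar type 1 cells, rose 7.30-fold and the water channel gene Aqp5, by far the most abundant gene of the list, fell 1.41-fold. In LLC, 4 of 7 were higher and 0 lower (median 0.10), among them Hopx (5.95-fold) and Napsa, an aspartic protease of surfactant processing (8.08-fold, from 0.0945 to 0.777 CPM). With OE_DSTYKwt, 3 of 7 were higher and 1 lower (median 0.05); Cebpa rose 1.31-fold and Etv5 fell 1.13-fold.

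Simple epithelial genes with sh3 were higher in 3 and lower in 1 of 8 tested in UN-SCC679 (median 0.47) and higher in 4 and lower in 1 of 8 in LLC (median 0.38). With OE_DSTYKwt none of 10 was higher and 2 were lower (median 0.01). Krt80, a type II keratin, was lower in all 3 comparisons, 2.88-fold, 2.05-fold and 1.27-fold in that order. Jup, plakoglobin, rose 1.72-fold with sh3 in UN-SCC679, and the epithelial factor gene Elf3 rose 3.30-fold in LLC.

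Of the endoderm and airway transcription factors, 8 of 13 were higher and 2 lower with sh3 in UN-SCC679 (median 0.22), 4 of 12 higher and 4 lower in LLC (0.05), and 4 of 13 higher and 1 lower with OE_DSTYKwt (0.12). Klf4, a factor of epithelial differentiation, rose 1.98-fold with sh3 and 2.003-fold with OE_DSTYKwt in UN-SCC679. Rbpj, the DNA-binding partner of Notch, rose 1.24-fold with sh3 in UN-SCC679 and 1.52-fold in LLC. Sox9, a factor of distal lung progenitors, rose 1.28-fold with sh3 and 1.24-fold with OE_DSTYKwt in UN-SCC679, and fell 2.27-fold with sh3 in LLC.

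**Figure D5:**
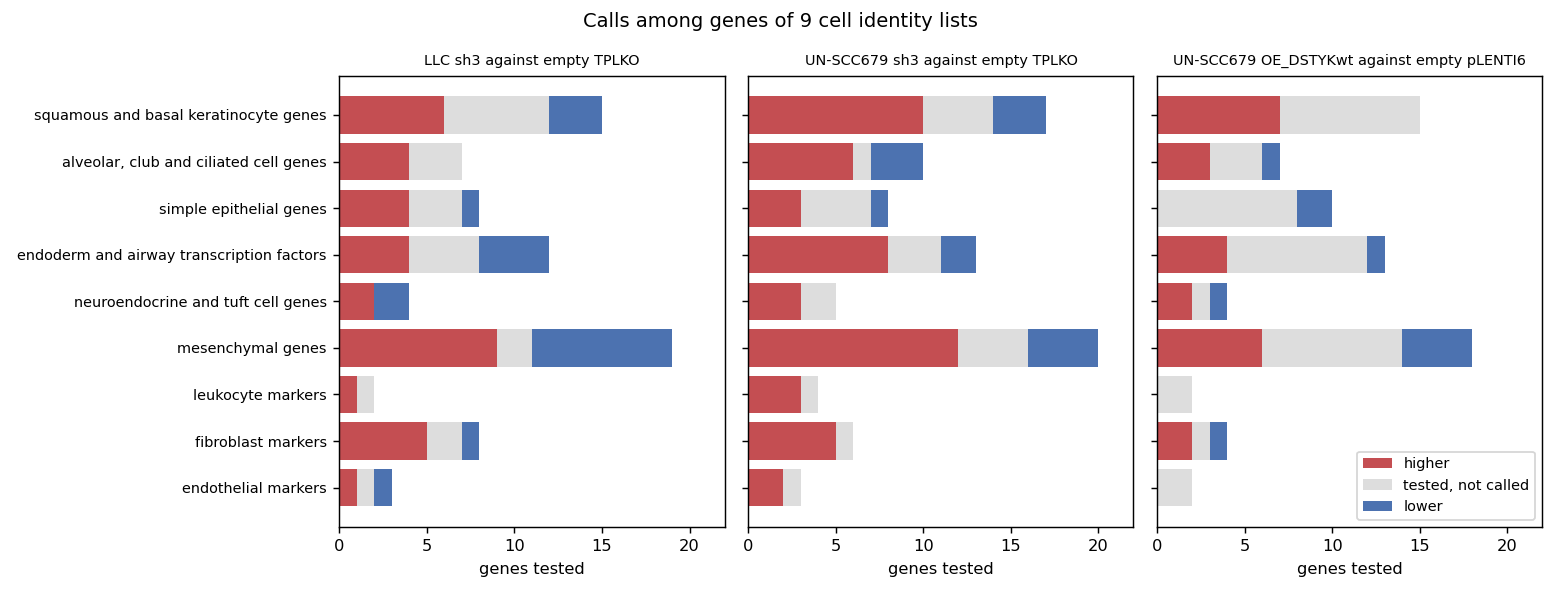
Number of tested genes (horizontal axis) of 9 cell identity lists called higher, not called or called lower in each of the 3 comparisons. In UN-SCC679 with sh3 the squamous and basal list has 10 higher and 3 lower of 17, and with OE_DSTYKwt 7 higher and 0 lower of 15.

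Markers of other cell types were counted in the same way, to be read against the 63.8% of all genes called with sh3 in UN-SCC679, 72.6% in LLC and 29.7% with OE_DSTYKwt. With sh3 in UN-SCC679, 12 of 20 mesenchymal genes were higher and 4 lower (median 0.26), with Col6a1, a collagen VI chain, up 20.1-fold and Postn, periostin, up 10.49-fold. Of the fibroblast markers, 5 of 6 tested were higher (median 0.63), Pdgfra by 8.21-fold and Gsn by 1.30-fold, and their summed level was 207 to 221 TPM without and 274 to 277 TPM with sh3. Of the leukocyte markers, 3 of 4 tested were higher (median 2.97), led by Cd74, the MHC class II invariant chain, which went from 0.103 to 1.995 CPM, and Laptm5, which had 0 counts without sh3. Both had passed the filter through the sh3 group only, so that their direction was fixed by the filter. Taking genes at 0 at their floor left every list median unchanged to 2 decimals, but this could hardly have moved one. No list had more than 1 such gene, and it had the largest change of its list. Cd74, which enters the leukocyte median, was not among them. The 10 leukocyte markers summed to 3.33 to 3.78 TPM without and 7.22 to 8.28 TPM with sh3, Adgre1 was at 0 in both groups, and Ptprc, which defines leukocytes, was at 0.0591 and 0.026 TPM. Endothelial markers were higher in 2 of 3 tested (median 0.83), Egfl7 by 3.31-fold and Vwf by 1.77-fold. Pecam1 was not called, at 0.817 TPM without and 0.622 TPM with sh3. The sum of the list was 3.95 to 4.26 TPM and 7.65 to 9.57 TPM, most of it Egfl7 (2.78 and 7.2 TPM), and Cldn5 was at 0 in both groups. The list of neuroendocrine and tuft cell genes also holds Yap1, an effector of Hippo signalling, and Rest, a repressor of neuronal genes, neither of which marks these cells. It had 3 of 5 higher (median 0.32), which were Dclk1, a tuft cell kinase, up 2.69-fold, Yap1, up 1.25-fold, and Rest, up 1.195-fold. Trpm5 (1.01 TPM without and 0.942 TPM with sh3) and Syp (0.361 and 0.382 TPM) were not called, and Neurod1 was at 0 in both groups. The part of these genes in the changes of the members was not tested. Among the higher genes of the other lists in UN-SCC679 with sh3, 3 alveolar, club and ciliated, 1 simple epithelial, 1 mesenchymal and 1 fibroblast gene had likewise passed the filter through the sh3 group only. In LLC, 1 higher and 2 lower squamous and basal genes had passed it through 1 group, as had 1 higher gene each of the alveolar (Napsa), simple epithelial, transcription factor and mesenchymal lists, and with OE_DSTYKwt none had.

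In LLC with sh3, 9 of 19 mesenchymal genes were higher and 8 lower (median -0.03), S100a4 falling 3.16-fold and Sparc 1.49-fold. There, 5 of 8 fibroblast markers were higher and 1 lower (0.83; summed level 110 to 116 TPM without and 231 to 238 TPM with sh3; Gsn up 2.27-fold, Fbln1 up 2.35-fold). Of 2 leukocyte markers tested, Cd74 rose 2.69-fold (sum 8.01 to 8.83 and 16.8 to 17.3 TPM). Endothelial markers had 1 of 3 higher and 1 lower, Vwf and Egfl7 (sum 34.9 to 39.4 and 31.4 to 35.4 TPM). Neuroendocrine and tuft cell genes had 2 higher and 2 lower of 4; Rest rose 1.26-fold and Yap1 fell 1.15-fold. With OE_DSTYKwt, 6 of 18 mesenchymal genes were higher and 4 lower (median 0.08; Col6a1 up 1.38-fold, Sparc down 1.25-fold). Fibroblast markers had 2 higher and 1 lower of 4 (0.15; sum 151 to 158 TPM without and 146 to 151 TPM with OE_DSTYKwt), with Pdgfra up 2.03-fold and Gsn down 1.28-fold. Neither of 2 leukocyte (sum 6.11 to 7.14 and 6.77 to 8.19 TPM) nor of 2 endothelial markers (9.29 to 10.4 and 8.52 to 10.4 TPM) was called. Of 4 neuroendocrine and tuft cell genes, 2 were higher and 1 lower, Yap1 rising 1.27-fold and Dclk1 1.25-fold (0.21). Each named change of the lists passed the edgeR test with n = 3 per group, except where a gene is given as not called.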

How the data were processed

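Per the labels' protocols, stranded Illumina mRNA libraries were read for 75 bases. The submitters' processing notes name kallisto, sleuth and mm10 but no versions. The authors deposited estimated counts per transcript, which are not normalized and share a read among transcripts that match it equally well, and the effective lengths, the values of unit other used for TPM. Of 118489 transcripts, 116816 matched a gene of GENCODE M21 (GRCm38); the other 1673 held 0.515% to 0.593% of a library and were left out. Counts were summed per gene and rounded. Groups come from the sample titles. Tests used edgeR 4.0.16 in R 4.3.3 (TMM scaling, default filter, minimum count 10, total 15, quasi-likelihood test). Alternatives were DESeq2 1.42.0, limma 3.58.1 on log2(TPM + 1), library size scaling, no filter, a filter of 1 CPM in 3 libraries, a replicate block and leaving out each library. The procedure was run on simulated data with far fewer changed genes than were called here. That run does not show how it performs when so many genes change.

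The 10 genes and the lists were chosen with earlier results of these data known. Named besides the 10 genes and Dstyk are the 2 called genes with the smallest adjusted p of each list in each comparison, and the 3 genes most like each keratin gene tested throughout; the other marker genes given with levels were named after their values were seen. A gene that this rule names is not reported here. Genes overlapping Sox2, Nkx2-1, Krt7 and Krt8 in the annotation are not in the table of transcripts used here. Molecules were not tagged, so intervals and floors cover counting error only.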

Additional observations from a re-analysis of the deposited data

Results flagged for a closer look

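The sh3 effects of the 4 keratin genes tested in both lines differed between UN-SCC679 and LLC in a test of the difference itself (edgeR interaction on 12 libraries), which called 59.9% of all genes. The difference, UN-SCC679 minus LLC in log2, was 1.06 for Krt7, 2.51 for Krt8, -0.83 for Krt18 and 6.82 for Krt19. For Krt18 it sets a fall from 174 to 99.6 TPM in UN-SCC679 beside 40.4 and 41.0 TPM in LLC. For Krt8 the levels in LLC were 0.520 and 0.0567 TPM, and for Krt19 the UN-SCC679 control was at 0 counts, so both rest on very few counts in 1 of the lines. There each had passed the filter through 1 group only, and the difference for Krt8 was -0.105 with limma.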

How the results depend on the processing

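Of 690 values of single genes recomputed under the alternatives, 661 kept their direction and their side of the threshold, 12 lost a call, 8 gained one and 9 changed sign. The sign changes concern small or thinly counted differences. With library size scaling Krt19 in LLC was 0.016 and Sox2 with sh3 in UN-SCC679 was 0.004. With limma Krt7 in LLC was -0.079 and the difference of Krt8 between the lines -0.105. Leaving out 1 library gave -0.406 to 0.149 for Krt19 in LLC and -0.118 to 0.029 for Sox2 with sh3, the latter positive without the first empty library only. The cause was not tested. The count of called members stayed within 1.5 times in every comparison and alternative but 1: in LLC with sh3 it was 0 with a filter of 1 CPM in 3 libraries, under which Krt8 was no longer tested. Without the first library with empty pLENTI6 no change of sign or lost call occurred among the members in the OE_DSTYKwt comparison.

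Libraries with the same replicate number deviated together by correlations between -0.074 and 0.079 over genes, and not every library correlated best with its own number. No pairing by number was thus visible. The labels do not say whether the numbers mark shared cultures or preparations, and these correlations cannot settle it. With a replicate block the counts of called members were 1, 7 and 5 in the 3 altered arms, against 1, 7 and 6 without it, the call lost being that of Krt14 with OE_DSTYKwt (adjusted p = 0.0674). Over all genes, 9925 of 13767, 8806 of 14271 and 3771 of 13975 were called with the block. The other call lost was that of Nkx2-1 in the difference of effects.

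Depth limits the genes with few counts: Krt8 and Trp63 in LLC, Krt14 with pLENTI6 and Krt19 in UN-SCC679.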
